A study of Mus musculus with 6 samples.

Results

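The 10 genes described here act around the phosphorylation of eIF2 alpha: the kinases Eif2ak1, Eif2ak2, Eif2ak3 and Eif2ak4, the phosphatase subunits Ppp1r15a and Ppp1r15b, and the stress effectors Trib3, Chac1, Ddit4 and Sesn2. They were chosen by name, as genes with an annotated probe set of 1 symbol, and all 10 were found among the 19937 genes of the table. RNA came from the olfactory epithelium (septa and turbinates) of C57BL6 mice on the day of birth, from intercrosses of Atf5+/- parents. The knockout group was Atf5-/- and the control group Atf5+/+, with 3 samples per genotype and 1 whole-transcript array per sample. Each sample pooled tissue of 3 pups, so differences between single pups are not visible. The labels do not describe the Atf5 allele, and every cell of an Atf5-/- pup carries it.

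Phosphorylation of eIF2 alpha slows protein synthesis in general and favours translation of a few messages, among them those of the transcription factors ATF4, CHOP and ATF5. Each kinase answers to its own signal: Eif2ak1 (HRI) to lack of heme, Eif2ak2 (PKR) to double-stranded RNA, Eif2ak3 (PERK) to unfolded protein in the endoplasmic reticulum, and Eif2ak4 (GCN2) to lack of amino acids. Ppp1r15a (GADD34) and Ppp1r15b (CReP) bring protein phosphatase 1 to eIF2 alpha and reverse the mark, the former as an inducible and the latter as a constitutive subunit. Trib3, Chac1, Ddit4 and Sesn2 are known as transcripts that ATF4 and its partners can raise. In olfactory neurons, PERK is known to act with ATF5 when receptor protein first accumulates in the endoplasmic reticulum.

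Promoter sequences are shown for Chac1, Ddit4 and Ppp1r15a, since these 3 genes passed the test between genotypes. Each is the 250 bases before the annotated start, from RefSeq on GRCm38.p6: chr2:119350992-119351241 on the plus strand for Chac1, chr10:59951771-59952020 on the minus strand for Ddit4, and chr7:45526269-45526518 on the minus strand for Ppp1r15a. Capitals mark matches to a composite C/EBP-ATF element, the kind bound by ATF4 with a C/EBP partner, or to a cyclic AMP response element (CRE).
Chac1: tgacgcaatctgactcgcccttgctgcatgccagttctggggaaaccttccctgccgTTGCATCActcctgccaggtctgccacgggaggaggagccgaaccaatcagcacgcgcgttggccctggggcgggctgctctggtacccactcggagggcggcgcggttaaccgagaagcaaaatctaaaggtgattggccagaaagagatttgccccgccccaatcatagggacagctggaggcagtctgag
Ddit4: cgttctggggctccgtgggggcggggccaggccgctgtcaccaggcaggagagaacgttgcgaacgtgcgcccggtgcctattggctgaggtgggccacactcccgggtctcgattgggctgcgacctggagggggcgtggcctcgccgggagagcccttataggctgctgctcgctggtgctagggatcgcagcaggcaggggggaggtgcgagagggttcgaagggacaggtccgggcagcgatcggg
Ppp1r15a: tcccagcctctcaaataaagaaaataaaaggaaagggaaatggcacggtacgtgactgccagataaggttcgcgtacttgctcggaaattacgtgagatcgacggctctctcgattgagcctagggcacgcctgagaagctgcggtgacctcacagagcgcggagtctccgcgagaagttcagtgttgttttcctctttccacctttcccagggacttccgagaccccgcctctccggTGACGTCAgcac

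The composite element was searched as TGATGNAA, which reads TTNCATCA on the other strand, and the CRE as the palindrome TGACGTCA. In windows of 300 bases, from 250 before to 50 after the start, 3.97% of 32851 annotated promoters held the first and 1.79% the second. Of the 10 genes, 9 had a window, and Ppp1r15b had none. Chac1 held TTGCATCA, beginning 193 bases before its start. Ppp1r15a held the CRE, beginning 12 bases before its start. Trib3 held TTACATCA, beginning 14 bases after its start, and Ddit4, Sesn2 and the 4 kinase genes held neither motif. The shown stretches therefore had no match in common. These are letter matches only, and binding was not measured.

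In the knockout, 2 stress effectors rose and 1 phosphatase subunit fell, while the transcripts of the kinases did not pass the test. Chac1 was 1.29-fold higher (95% interval 1.14 to 1.45, n = 3 arrays per genotype) and Ddit4 1.30-fold higher (1.14 to 1.48). Ppp1r15a was 1.32-fold lower (1.15 to 1.51). The other 7 genes did not pass at an adjusted p of 0.05 in limma, which was fitted across all genes. Thus 3 of the 10 genes passed, against 3.74% of all genes. By direction it was 2 higher, against 0.502%, and 1 lower, against 3.24%. Without olfactory receptor genes, which made up much of the decrease, these backgrounds were 0.518% higher and 1.52% lower. The arrays of the genotypes did not overlap for 5 of the 10 genes (Eif2ak1, Ppp1r15a, Ppp1r15b, Chac1 and Ddit4), against 21.1% of all genes. The 10 genes were chosen with earlier results of these data known, so these shares are descriptions only. The median log2 change was 0.09 over the 10 genes and 0.01 over all genes. All 3 changes were small: 71 genes of the table passed with a change of at least 2-fold.

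**Figure D1:**
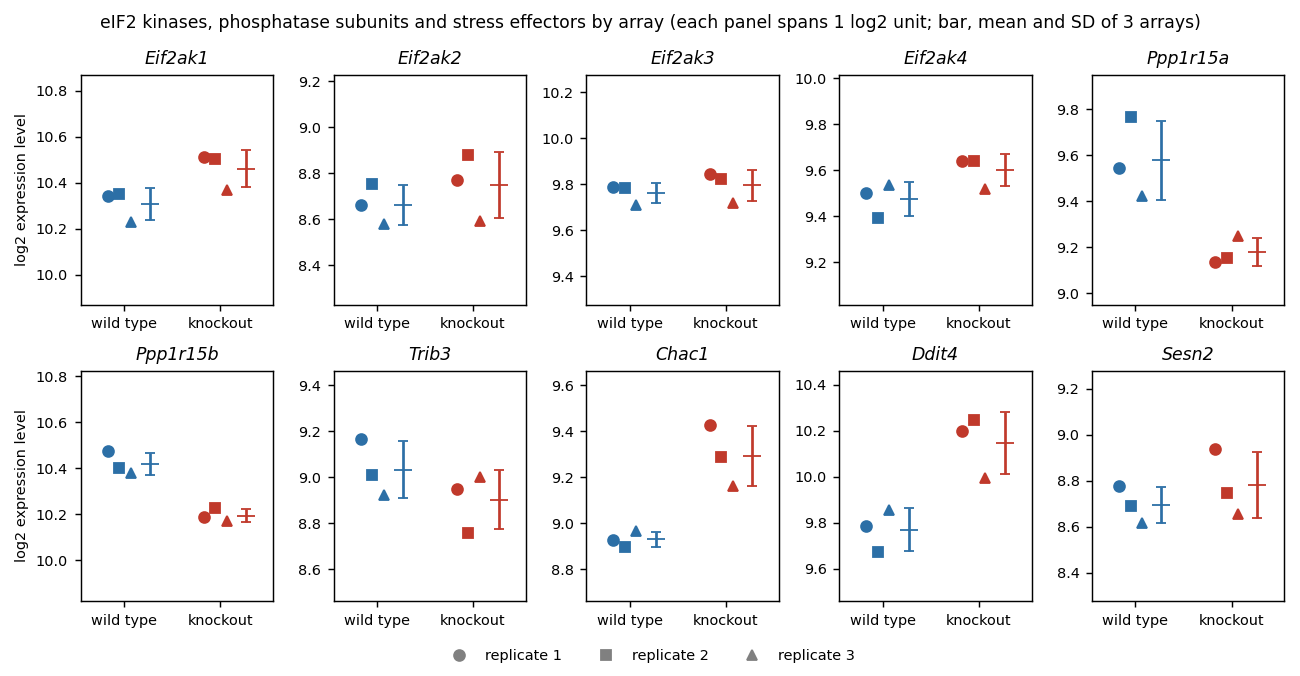
Log2 expression level (vertical axes, each spanning 1 log2 unit) of the 10 genes on every wild-type (blue) and knockout (red) array; symbols mark the replicate number and bars give the mean and SD of 3 arrays. Chac1 and Ddit4 lie higher on all knockout arrays, Ppp1r15a and Ppp1r15b lower on all of them, and the arrays of the other genes overlap, except those of Eif2ak1.

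Several properties of the pools bear on all of these values. Atf5 stood at 9.43, 9.44 and 9.50 on the knockout arrays and at 10.54, 10.96 and 10.63 on the wild-type arrays. Its knockout mean of 9.46 lay above the median level of all genes, 9.015, and what that remaining reading measures was not tested. Markers of mature olfactory neurons fell for 11 of 12 genes, with an array mean over the list of 9.17 to 9.29 in the knockout and 10.71 to 11.02 in the wild type. Bulk tissue cannot tell fewer cells of a type from less RNA per cell. Markers of immature neurons fell for 3 of 6, and for 4 with the replicate number as a block (10.29 to 10.50 against 10.67 to 10.83). Enamel genes fell for 2 of 3, and for 3 with the block (array means 7.98 to 9.02 against 9.41 to 11.61), and 0 of 7 skeletal muscle genes passed, with array means of 9.88 to 10.22 and 8.85 to 9.98. Of cell division genes, 3 of 9 rose, and with the replicate block all 9 did. The 3 were the mitotic kinase Plk1 by 0.57 (SE 0.11), the spindle checkpoint kinase Bub1b by 0.30 (SE 0.06) and the replicative helicase subunit Mcm4 by 0.29 (SE 0.06). The call of Plk1 ended without knockout replicate 2 (adjusted p = 0.0851), that of Bub1b held without knockout replicate 3 only, and that of Mcm4 ended without any 1 array. With the mean of 3 Y-linked genes as a covariate, Bub1b (0.0786) and Mcm4 (0.0726) did not pass, nor did Mcm4 after quantile normalization (0.0704). Counts at an unadjusted p under 0.05, here and below, have a wide background: Eif2ak1, at a limma p of 0.0530, ranked 3310 of 19937 genes. None of 8 macrophage, 5 erythroid, 6 sustentacular, 7 basal cell or 6 bone and cartilage markers passed in limma, with 4, 1, 1, 1 and 0 of them at an unadjusted p under 0.05, as was 1 of the muscle genes. With the replicate block, several of these lists had calls: the macrophage receptor Mrc1 was higher (0.35, adjusted p = 0.0163), as were the erythroid gene Alas2 and the muscle genes Myh3 (0.96, adjusted p = 0.0438) and Mylpf (0.37, adjusted p = 0.0449). The sustentacular enzyme Cyp2g1 (-0.36, adjusted p = 0.0114) and the cartilage collagen Col10a1 (-0.27, adjusted p = 0.0469) were lower in that fit, and 0 of the basal cell markers passed. Of the 6 bone and cartilage markers, however, 4 had a change above 0, with a list median of 0.05. Of the 5 erythroid markers, 3 had a change below 0, with a median of -0.04. All 8 macrophage markers had a change above 0, with a median of 0.18. Their array means were 9.51 to 9.68 in the knockout and 9.39 to 9.45 in the wild type, without overlap. Of the 6 sustentacular markers, 5 had a change below 0 (median -0.07), and of the 7 basal cell markers, 4 had a change above 0 (median 0.04). The sex of the pups is not in the labels. Xist, transcribed from an inactive X chromosome, was 7.39 in wild-type replicate 3 and between 12.53 and 13.25 on the other 5 arrays. The mean of 3 Y-linked genes read 9.34, 8.40 and 8.16 in Atf5-/- pools against 7.74, 9.47 and 9.83 in Atf5+/+ pools. What these differences in make-up contribute to the 10 genes was not tested, other than by a fit with the Y-linked mean as a covariate.

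The 4 kinase transcripts all had small positive changes, and none passed, with 0 also at an unadjusted p under 0.05. Eif2ak1 measured 10.51, 10.50 and 10.37 on the knockout arrays and 10.34, 10.35 and 10.23 on the wild-type arrays. The groups were separated by a gap of 0.01 on the log2 scale, and the change of 0.15 (SE 0.07) did not pass (adjusted p = 0.319 by limma). Its 95% interval ran from -0.00 to 0.31. Because HRI is abundant in red cell precursors, erythroid genes were read beside it. Alas2, the heme synthesis enzyme of those cells, read 9.39, 9.86 and 9.48 in Atf5-/- pools against 8.97, 9.58 and 9.005 in Atf5+/+ pools, and passed only with the replicate number as a block (adjusted p = 0.307 without, 0.00982 with the block). The erythroid list as a whole had array means of 7.79 to 7.90 and 7.68 to 7.94. Its part in the level of Eif2ak1 was not tested.

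Eif2ak4 measured 9.64, 9.64 and 9.52 in Atf5-/- pools against 9.50, 9.39 and 9.54 in Atf5+/+ pools. Replicates 1 and 2 of the knockout lay above every wild-type array, whereas replicate 3 lay among them, and the change of 0.12 (SE 0.07) did not pass (adjusted p = 0.423 by limma). Eif2ak2 was 8.77, 8.88 and 8.59 against 8.66, 8.75 and 8.58, with overlapping groups and a change of 0.09 (SE 0.08, adjusted p = 0.699). PKR is itself induced by interferon, and 0 of 16 interferon response genes passed, with 1 at an unadjusted p under 0.05; the lowest p was that of Ifit1, an interferon-induced RNA-binding protein, at -0.27 (adjusted p = 0.280; 0.0433 with the replicate block). Eif2ak3 was 9.84, 9.82 and 9.72 against 9.79, 9.78 and 9.71, the smallest change of the 10 genes at 0.03 (SE 0.06, adjusted p = 0.854). Its 95% interval of -0.11 to 0.18 corresponds to between 0.93 and 1.13 times the wild-type level. For Eif2ak2 the same interval was 0.93 to 1.21 times, and for Eif2ak4 0.98 to 1.21 times.

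Transcripts of proteins that restrain or activate the kinases showed the same lack of calls. Of 10 such genes none passed, 0 had an unadjusted p under 0.05, and the list median was 0.03. Dnajc3, an inhibitor of PERK, was at -0.13 (SE 0.09) and Impact, an inhibitor of GCN2, at 0.09 (SE 0.08). Hspa5, the chaperone that holds PERK inactive, was at -0.17 (SE 0.10) and Gcn1, the ribosome-bound activator of GCN2, at 0.01 (SE 0.06). The lowest p belonged to Tarbp2, a double-stranded RNA-binding protein that inhibits PKR (0.12, SE 0.06, adjusted p = 0.417). Of 9 measured genes of eIF2, its exchange factor eIF2B and the GTPase activator Eif5, none passed either and 0 had an unadjusted p under 0.05, with a median of 0.06. Eif2b1, the alpha subunit of eIF2B, had the lowest p (0.12, SE 0.06, adjusted p = 0.409). The Y-linked eIF2 gamma gene Eif2s3y ranged from 7.91 in wild-type replicate 1 to 10.31 in wild-type replicate 3.

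Both phosphatase subunits were lower in the knockout, and one passed. Ppp1r15a measured 9.14, 9.15 and 9.25 on the knockout arrays and 9.54, 9.76 and 9.42 on the wild-type arrays. Every knockout array lay below every wild-type array, and the wild-type values spread more (SD 0.17) than the knockout values (SD 0.06). The change was -0.40 (SE 0.09, adjusted p = 0.0435 by limma). Between arrays of the same replicate number it was -0.41, -0.61 and -0.17 for numbers 1, 2 and 3. The call held with the replicate block (adjusted p = 0.0293) and without wild-type replicate 3 (0.0249). It ended without knockout replicate 1 (0.137), 2 (0.147) or 3 (0.0609), without wild-type replicate 1 (0.116) or 2 (0.090), with genes under the median level left out (0.0530), and with the Y-linked covariate (0.0832).

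Ppp1r15b measured 10.19, 10.23 and 10.17 in Atf5-/- pools against 10.47, 10.40 and 10.38 in Atf5+/+ pools. The groups did not overlap and the spread within each was small (SD 0.03 and 0.05). The change of -0.22 (SE 0.06) nevertheless did not pass (adjusted p = 0.0830 by limma; 0.0663 with the replicate block), and its 95% interval was -0.36 to -0.09. After a further quantile normalization it passed (-0.26, adjusted p = 0.0373). Ppp1r15b is the only one of the 10 genes with a second probe set, which matches a separate cDNA record. That probe set gave 8.12, 8.23 and 8.25 for the knockout against 8.03, 8.36 and 8.29 for the wild type, a change of -0.02 (SE 0.09). The arrays overlapped there, so the probe sets of this gene disagree, and with their mean the change was -0.12 (adjusted p = 0.374). The catalytic subunits of protein phosphatase 1, to which both proteins bind, did not pass, 0 of 3 at an unadjusted p under 0.05: Ppp1ca was at -0.04, Ppp1cb at -0.09 and Ppp1cc at -0.05 (SE 0.06 each).

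GADD34 is known as a fast stress-induced and immediate early transcript, so 20 immediate early genes were read beside Ppp1r15a. Of these, 2 rose and none fell, with a list median of 0.10. Fosl2, an AP-1 subunit, rose by 0.36 (SE 0.07, adjusted p = 0.0193) and Ccn1, a matricellular protein, by 0.44 (SE 0.10, adjusted p = 0.0468). Fos was at 0.00 (SE 0.15), with a sign that turned when single arrays were left out, and Egr1 at 0.33 (SE 0.16, adjusted p = 0.368). Both read highest in knockout replicate 1: Egr1 at 9.77 against 9.07 and 9.06 on the other knockout arrays, Fos at 9.01 against 8.36 and 8.39. With 1 array left out the change of Egr1 went as low as 0.10. Array means over the list were 9.59 to 9.83 in the knockout and 9.51 to 9.58 in the wild type. Ppp1r15a itself fell, whereas the list had no lower call; the difference between them was not tested. The call of Fosl2 ended without knockout replicate 1 (0.0844) or wild-type replicate 1 (0.0864) or 3 (0.0567), and that of Ccn1 held without knockout replicate 2 only (0.0563 to 0.174 without each other array). Ccn1 also did not pass after quantile normalization (0.0632), with all probe sets (0.0538) or with either level filter (0.0521 and 0.0565). With the replicate block 3 of the 20 genes were higher.

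**Figure D2:**
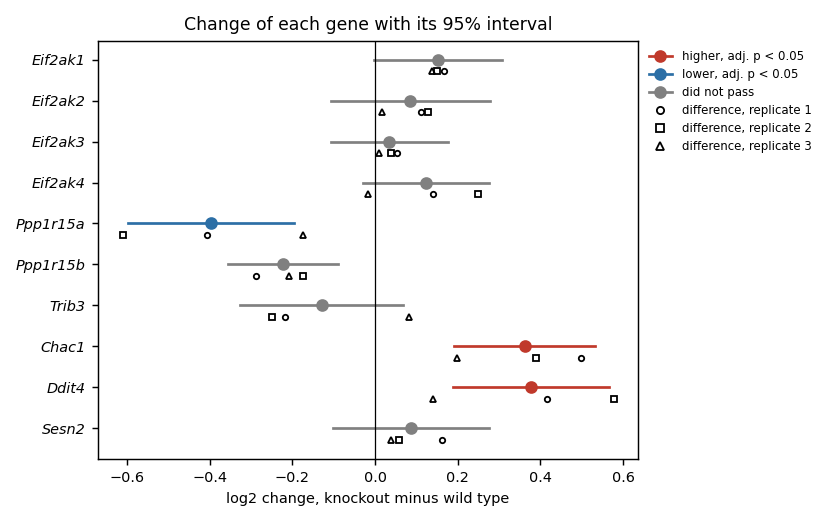
Log2 change, knockout minus wild type (horizontal axis), of each gene with its 95% interval (filled circle and line; red higher, blue lower, grey did not pass), and the difference between arrays of the same replicate number (open symbols). Chac1 and Ddit4 lie at 0.36 and 0.38, Ppp1r15a at -0.40, and the differences of all 3 are smallest for replicate number 3.

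Among the effectors, Chac1, which degrades glutathione, was 9.43, 9.29 and 9.16 on the knockout arrays and 8.93, 8.90 and 8.97 on the wild-type arrays. All knockout arrays lay above all wild-type arrays, and the spread was wider in the knockout (SD 0.13 against 0.03). The change was 0.36 (SE 0.08, adjusted p = 0.0320 by limma; 0.0218 with the replicate block), the lowest p of the 10 genes. By replicate number it was 0.50, 0.39 and 0.20. The call held without knockout replicate 3 (0.0197) and with the Y-linked covariate (0.0447). It ended without knockout replicate 1 (0.104) or 2 (0.0991) and without wild-type replicate 1 (0.113), 2 (0.0966) or 3 (0.0668). Its relative Chac2, a glutathione-degrading enzyme of the same family, was at -0.25 (SE 0.10) and passed only with the replicate block, as lower (adjusted p = 0.276 without, 0.0464 with it).

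Ddit4 (REDD1), an inhibitor of mTORC1 signalling, measured 10.20, 10.25 and 9.996 in Atf5-/- pools against 9.79, 9.67 and 9.86 in Atf5+/+ pools. The groups did not overlap, and knockout replicate 3 came closest to the wild type. The change was 0.38 (SE 0.08, adjusted p = 0.0408 by limma; 0.0372 with the replicate block), and by replicate number 0.41, 0.58 and 0.14. The call held without knockout replicate 3 (0.0201). It ended without knockout replicate 1 (0.136) or 2 (0.147), without wild-type replicate 1 (0.121), 2 (0.122) or 3 (0.0543), with median centring (0.0562) and with the Y-linked covariate (0.0742). Its relative Ddit4l was at -0.00 (SE 0.07). None of 14 genes that relay signals to mTORC1 passed, and 0 had an unadjusted p under 0.05, with Tsc1 at 0.04 and Tsc2 at 0.07, the complex through which REDD1 acts; the lowest p was that of Wdr24 (0.12, SE 0.06, adjusted p = 0.350), a subunit of the GATOR2 complex.

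Ddit4 is also a known target of glucocorticoids and of hypoxia, so both sets of genes were read beside it. Of 8 glucocorticoid-responsive genes, 4 rose and none fell: Zbtb16 by 0.79 (SE 0.07, adjusted p = 0.000822), Pdk4 by 0.51 (SE 0.08, adjusted p = 0.00710), Tsc22d3 by 0.44 (SE 0.10, adjusted p = 0.0393) and Per1 by 0.35 (SE 0.08, adjusted p = 0.0497). The list median was 0.36, with array means of 11.21 to 11.39 in the knockout and 10.83 to 11.00 in the wild type. The call of Tsc22d3 ended without any 1 array (0.0513 to 0.136), and that of Per1 held without knockout replicate 2 only (0.0910 to 0.145 without each other array). With the Y-linked covariate neither passed (0.0796 and 0.0948), and Per1 also did not pass after quantile normalization (0.0742), with all probe sets (0.0560) or with either level filter (0.0562 and 0.0596). With the replicate block 5 of the 8 genes were higher. None of 11 hypoxia genes passed, with a median of 0.18, and 5 had an unadjusted p under 0.05. That count has a wide background, since a limma p of 0.0530 ranked 3310 of 19937 genes. The lowest p was that of P4ha1, a collagen prolyl hydroxylase (0.32, SE 0.08, adjusted p = 0.0596 by limma, 0.0139 with the replicate block). With the block 2 of the 11 were higher, the other being Vegfa, an angiogenic growth factor (0.31, adjusted p = 0.0450). The part of these inputs in the level of Ddit4 was not tested.

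Trib3, a pseudokinase that binds and restrains ATF4, measured 8.95, 8.76 and 9.003 in Atf5-/- pools against 9.17, 9.01 and 8.92 in Atf5+/+ pools. The groups overlapped, and the change of -0.13 (SE 0.09, adjusted p = 0.537 by limma) had a 95% interval of -0.33 to 0.07. The difference was negative for replicate numbers 1 and 2 (-0.22 and -0.25) and positive for number 3 (0.08). Sesn2, a leucine-binding inhibitor of mTORC1 signalling, was 8.94, 8.75 and 8.66 against 8.78, 8.69 and 8.62, with overlap and a change of 0.09 (SE 0.08, adjusted p = 0.688). Among the relatives of these proteins, Sesn1, a sestrin known as a p53 target, was at 0.35 (SE 0.09) and passed with the replicate block (adjusted p = 0.0752 without, 0.0163 with it) and without wild-type replicate 2 (0.0464). Of 9 p53 target genes, Sesn1 among them, none passed and 2 had an unadjusted p under 0.05, and the list median was 0.06. With the replicate block 2 were higher, Sesn1 and the autophagy regulator Trp53inp1 (0.35, adjusted p = 0.0234). The tribbles pseudokinases Trib1 (0.12, SE 0.07) and Trib2 (0.16, SE 0.06) and the sestrin Sesn3 (0.11, SE 0.07) did not pass.

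The arrays of replicate number 3 were the lowest of their genotype, in both genotypes, for 5 of the 10 genes: Eif2ak1, Eif2ak2, Eif2ak3, Ppp1r15b and Sesn2. For Eif2ak1 the differences between same-numbered arrays were 0.17, 0.15 and 0.14, closer to each other than the arrays of either genotype. With the replicate number as a block its SE went from 0.07 to 0.06 and its adjusted p from 0.319 to 0.176, still short of the threshold. In that fit 2.11% of all genes were higher and 4.46% lower, and the same 3 of the 10 genes passed. No other of the 10 genes gained or lost its call by it.

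Beyond these genes, the wider ATF4 pathway was described by a list of 32 genes, of which 30 were measured. Here 4 rose, against 0.502% of all genes, none fell and 26 did not pass, with a median of 0.14. The arrays of the genotypes did not overlap for 14 of the 30, against 21.1% of all genes. This list too was chosen with earlier results of these data known, so its shares are descriptions only. Slc7a3, a cationic amino acid transporter, rose by 0.78 (SE 0.09), the folate enzyme Mthfd2 by 0.55 (SE 0.08), the serine hydroxymethyltransferase Shmt2 by 0.55 (SE 0.08) and the serine synthesis enzyme Psat1 by 0.34 (SE 0.08, adjusted p = 0.0476). Slc7a3, Mthfd2 and Shmt2 passed without any 1 array, and Psat1 without wild-type replicate 2 only (0.0763 to 0.189 without each other array). Psat1 also did not pass after quantile normalization (0.0654), with all probe sets (0.0540), with either level filter (0.0549 and 0.0578) or with the Y-linked covariate (0.0694). Atf4 itself measured 9.96, 9.75 and 9.86 in Atf5-/- pools against 9.61, 9.72 and 9.71 in Atf5+/+ pools, without overlap, and its change of 0.18 (SE 0.07) did not pass (adjusted p = 0.264). Ddit3, which encodes CHOP, was at -0.12 (SE 0.08) and Asns, an amino acid response enzyme, at 0.04 (SE 0.07). Eif4ebp1, a translation inhibitor, passed only with the replicate block (0.25, adjusted p = 0.0665 without, 0.0433 with it). Over the ATF4 list and the lists of catalytic subunits, eIF2 and eIF2B, kinase regulators and effector relatives, 58 genes in all, 4 were higher and 0 lower, and with the replicate block 6 and 1.

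**Figure D3:**
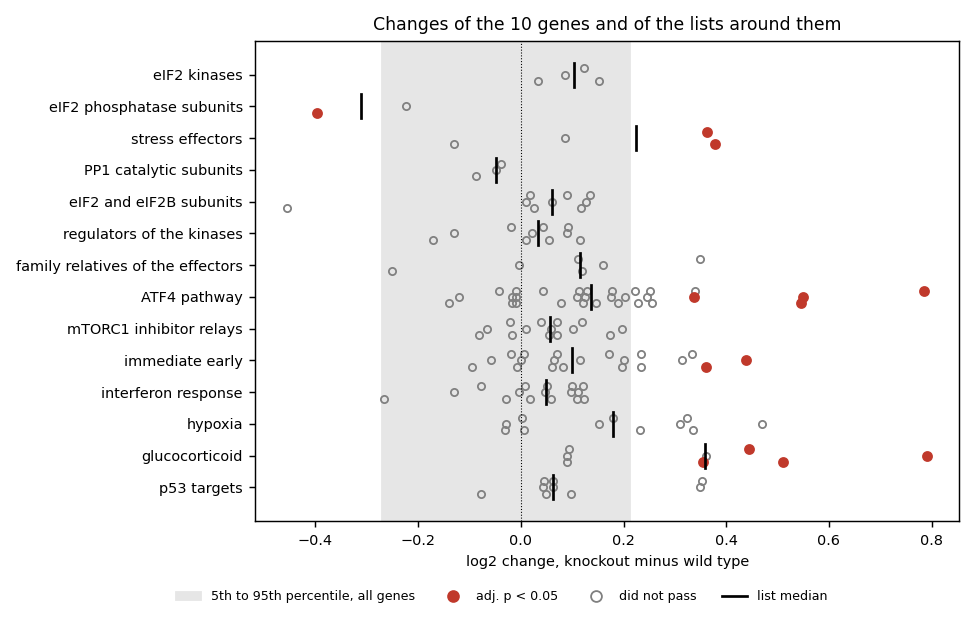
Log2 change, knockout minus wild type (horizontal axis), of the genes of each list (rows); filled red points passed at an adjusted p of 0.05, open points did not, black bars are list medians and the grey band spans the 5th to 95th percentile of all genes (-0.27 to 0.21). Medians were 0.10 for the kinases, -0.31 for the phosphatase subunits, 0.22 for the effectors, 0.14 for the ATF4 pathway and 0.36 for the glucocorticoid genes.

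The adjusted p values of the 3 calls lay close to the threshold of 0.05, between 0.0320 and 0.0435. The sign of the change stayed the same for all 10 genes in all 15 alternative settings that gave a value. For Chac1 the change ranged from 0.30 to 0.43, for Ddit4 from 0.33 to 0.45 and for Ppp1r15a from -0.47 to -0.30. With 1 array left out, each of the 3 passed in 1 of 6 settings.

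**Figure D4:**
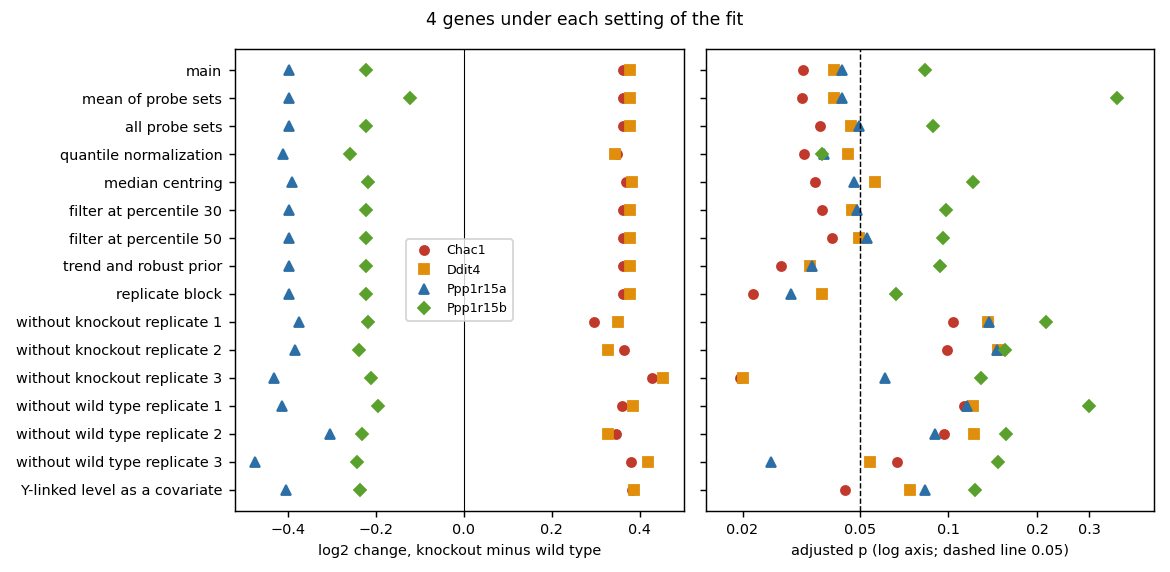
Log2 change (left) and adjusted p on a log axis (right; dashed line 0.05) of Chac1, Ddit4, Ppp1r15a and Ppp1r15b as reported and in each of 15 alternative settings (rows). The changes keep their sides of 0 throughout, while most adjusted p values with 1 array left out lie to the right of the line.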

How the data were processed

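Trizol extraction, RNeasy clean-up and whole-transcript biotin labelling in 1 colour are described per the labels' protocols. The values the authors deposited lie between 4.50 and 14.7 and were read as log2 expression levels; the submitters' processing notes name RMA, affy and limma, and the log base is not given in the sources used here. Array medians were 8.67 to 8.72. RMA hides a shift common to most transcripts, and precision is limited by having 6 arrays.

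Of 34760 rows, 21640 had 1 gene symbol in GEO's platform annotation, 1321 several and 11799 none. Where a gene had more than 1 probe set (954 genes), the brightest by mean level stood for it, giving 19937 genes. Columns of other samples numbered 0. Genotypes were compared with limma 3.58.1 in R 4.3.3 (lmFit and eBayes, 2-sided, Benjamini-Hochberg over all genes, threshold 0.05). An adjusted p without another name is from this fit, SE is its moderated standard error, and intervals are at 95%. P-values rest on the spread between pools, moderated across all genes, and not on the spread between single pups. The fitting script was tested on simulated data with known changes. It called 49 of 67 genes at a log2 size of 0.5, 66 of 67 at 1 and 66 of 66 at 2. Smaller changes, such as those of Chac1, Ddit4 and Ppp1r15a, were not simulated, so the test does not show how often these are found.

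The 10 genes and the lists were chosen with earlier results of these data known. The rule named all 10, Atf5, from each list around them up to 4 genes past the threshold by size of change or, with none, the gene with the lowest p, and for each of the 10 past the threshold the 3 genes most correlated with it. Cell type marker lists are given by counts and array means, and some markers that passed only with the replicate block are also named. Other genes were named after their values were seen, for their known role. The model held genotype only. Deviations of same-numbered arrays correlated at 0.295, 0.122 and 0.234, each above the 0.1 taken here as a sign of pairing. Between arrays of unequal number the correlations ran from -0.259 to 0.0289. Deviations are from the mean of each genotype, so these correlations depend on one another and do not establish a pairing. The labels do not state what arrays of equal number share, so the replicate block was kept as an alternative. Alternatives were the replicate block, other probe set rules, quantile normalization, median centring, level filters, a trended robust prior, each array left out and, added after seeing the data, the Y-linked covariate.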

Additional observations from a re-analysis of the deposited data

How the results depend on the processing

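Without the replicate number as a block 100 genes were higher and 645 lower, and with the replicate block 421 and 889. The same 3 of the 10 genes passed with it, so it changed no call among them, while it added calls in many of the other lists, which are given with those lists; the number of lower pathway genes went from 0 to 1. The count of the 10 genes that were higher, 2, was 1 with median centring, 1 with the Y-linked covariate and 0 to 2 with 1 array left out. The count that were lower, 1, was 2 after quantile normalization, 0 with genes under the median level left out, 0 with the Y-linked covariate and 0 to 1 with 1 array left out. Over all genes, 60 were higher with genes under the median level left out, 60 with the Y-linked covariate and 27 to 127 with 1 array left out. Lower were 358 with genes under the 30th percentile left out, 226 with those under the median left out, and 383 to 584 with 1 array left out. The filters test fewer genes, and leaving out an array leaves fewer samples, but what moved these counts was not tested. The number of higher genes rose from 100 to 127 when knockout replicate 3 was dropped, and to 107 when wild-type replicate 2 was dropped. Dropping any other array lowered that number, and the number of lower genes fell whichever array was dropped. None of the 10 genes changed sign. Of the other named genes 5 did, all without a call: Ddit4l went from -0.00 to 0.00218 with median centring, to 0.00342 with the Y-linked covariate and to between -0.0533 and 0.0243 with 1 array left out, and Gcn1 from 0.01 to -0.00943 after quantile normalization and to between -0.0273 and 0.0406 with 1 array left out. With 1 array left out Fos ranged from -0.21 to 0.12, Tsc1 from -0.0035 to 0.0628 and Tsc2 from -0.0131 to 0.128. The median filter removed Eif2ak2, Trib3 and Sesn2, which then had no value. The mean levels of the 10 genes lay between the 42.4 and 82.0 percentiles of all genes, and no measure of signal over background was used here. Centring and quantile normalization moved the median of all genes by less than 0.1.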

Other observations

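Over the 6 arrays, the genes whose levels followed Chac1 most closely were Tmem115, Stx17 and Zcchc2 (Pearson r = 0.995 each), with changes of 0.14, 0.18 and 0.12. Those closest to Ddit4 were Anapc11 (r = 0.996), Rab5c (r = 0.995) and Plekha3 (r = 0.994), with changes of 0.17, 0.14 and 0.15. None of these 6 genes passed the test between genotypes. Those closest to Ppp1r15a were Nap1l5, Cldn34c4 and Chst3 (r = 0.994, 0.993 and 0.993), of which Nap1l5, a nucleosome assembly protein family member, was lower in the knockout (-0.40, adjusted p = 0.0336 by limma); with 1 array left out its call held without wild-type replicate 3 only (0.0550 to 0.119 without each other array), and it ended with the Y-linked covariate (0.0657). The 6 points share the split by genotype, and 133, 125 and 74 genes of the table reached r = 0.95 with Chac1, Ddit4 and Ppp1r15a.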
